A study of Mus musculus with 14 samples.

Results

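The 5 genes Stra8, Kit, Sohlh1, Sohlh2 and Gm1564, which govern the differentiation of mouse spermatogonia and their entry into meiosis, were followed across all the libraries of a study of Jmjd1a and Jmjd1b loss in male germ cells. They were taken by symbol and are 5 of the 24340 genes listed. Gm1564 is the files' symbol for the gene now called Meioc. Transcripts of postnatal testicular male germ cells from C57BL/6 mice were measured by RNA sequencing in 14 libraries, which form 7 groups of 2. Jmjd1a and Jmjd1b, listed as Kdm3a and Kdm3b, encode demethylases of lysine 9 of histone H3.

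At postnatal day 3 (P3) the DKO group was Vasa-Cre; Jmjd1a-/-; Jmjd1b-/-, the Jmjd1aKO group Vasa-Cre; Jmjd1a-/-; Jmjd1b-/+, the Jmjd1bKO group Vasa-Cre; Jmjd1a-/+; Jmjd1b-/-, and the Ctrl group Vasa-Cre; Jmjd1a-/+; Jmjd1b-/+. A wild-type group (WT) was also taken at P3. At postnatal day 7 (P7) there was a DKO and a Ctrl group with the genotypes of their P3 namesakes. Ctrl animals therefore carry Cre and 1 mutant copy of each gene, and every knockout group shares that background. Vasa-Cre is driven by a germ-cell promoter, so deletion is directed to germ cells. The labels describe no sort and do not give the number of animals behind each pair of libraries. Each p-value thus measures only the spread between these libraries, which may be technical.

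Postnatal spermatogonia either stay undifferentiated or, in response to retinoic acid, become differentiating spermatogonia that later enter meiosis. Sohlh1 and Sohlh2 are germ-cell basic helix-loop-helix transcription factors needed for that differentiation, and Kit, a receptor tyrosine kinase, marks differentiating spermatogonia and carries the signal of its ligand Kitl from Sertoli cells. Stra8 is induced by retinoic acid and is required for meiotic initiation. Meioc acts later, with the RNA-binding proteins Ythdc2 and Rbm46, to end the mitotic programme and maintain meiotic prophase.

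On the mouse GRCm38 assembly (mm10) with GENCODE M21, Stra8 lies on chromosome 6 at 34920163 to 34939344 (plus strand) and Kit on chromosome 5 at 75574916 to 75656722 (plus strand). Sohlh1 lies on chromosome 2 at 25842995 to 25847248 (minus strand), Sohlh2 on chromosome 3 at 55182028 to 55209957 (plus strand) and Gm1564 on chromosome 11 at 102663716 to 102682237 (plus strand). In that annotation none of the 5 gene bodies overlapped another gene.

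The promoters of Stra8, Sohlh2 and Meioc are shown because these 3 genes had the largest rises of the 5 in P7 DKO, and that of Sohlh1 because it did not pass the test there. Each runs from 250 bases before to 50 bases after the RefSeq start on GRCm38.p6, 5′ to 3′ on the gene's strand. The Stra8 and Meioc windows lie inside the gene bodies given above, past the GENCODE starts of 34920163 and 102663716. Positions and CG counts therefore belong to the RefSeq start. Capitals mark the motifs found: CANNTG, the E-box letters bound by basic helix-loop-helix factors, AGGTCA, the letters of a retinoic acid receptor site, and TCCCGC, E2F6-type letters, which lie on the other strand here and so read in reverse complement.
Stra8 (chr6:34920698-34920997, plus): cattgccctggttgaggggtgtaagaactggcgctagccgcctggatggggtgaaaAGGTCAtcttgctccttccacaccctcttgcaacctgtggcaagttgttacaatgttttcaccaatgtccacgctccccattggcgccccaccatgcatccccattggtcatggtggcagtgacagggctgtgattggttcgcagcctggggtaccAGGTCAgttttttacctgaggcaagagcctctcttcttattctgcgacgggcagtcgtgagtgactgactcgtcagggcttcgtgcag
Sohlh2 (chr3:55181794-55182093, plus): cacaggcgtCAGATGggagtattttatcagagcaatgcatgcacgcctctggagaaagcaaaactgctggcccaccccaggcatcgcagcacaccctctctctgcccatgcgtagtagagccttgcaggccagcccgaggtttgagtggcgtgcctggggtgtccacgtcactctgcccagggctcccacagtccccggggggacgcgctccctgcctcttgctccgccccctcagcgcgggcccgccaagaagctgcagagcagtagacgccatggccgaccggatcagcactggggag
Meioc (chr11:102665335-102665634, plus): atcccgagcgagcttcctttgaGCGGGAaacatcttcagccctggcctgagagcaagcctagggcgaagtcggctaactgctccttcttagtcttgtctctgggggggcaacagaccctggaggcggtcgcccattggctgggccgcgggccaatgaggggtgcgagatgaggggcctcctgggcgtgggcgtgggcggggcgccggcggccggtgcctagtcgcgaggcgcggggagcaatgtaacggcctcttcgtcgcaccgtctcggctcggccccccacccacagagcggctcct
Sohlh1 (chr2:25847199-25847498, minus): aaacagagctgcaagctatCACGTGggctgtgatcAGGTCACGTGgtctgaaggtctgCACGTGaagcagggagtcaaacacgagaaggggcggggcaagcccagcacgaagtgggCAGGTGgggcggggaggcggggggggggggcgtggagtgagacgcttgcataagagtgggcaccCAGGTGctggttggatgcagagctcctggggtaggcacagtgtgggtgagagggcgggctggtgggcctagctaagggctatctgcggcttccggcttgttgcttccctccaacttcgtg

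The Stra8 window held AGGTCA at positions -194 and -38 from the start and no CANNTG. Of the 27025 promoters of this length, 16% hold AGGTCA on either strand. Sohlh1 held 5 CANNTG, of which 3 were CACGTG, and 1 AGGTCA that overlapped one of these. Of all promoters 7.2% hold CACGTG and 72.1% hold CANNTG. The Sohlh2 window held a single CANNTG at -241. Meioc held 1 TCCCGC at -228, letters present in 20.0% of promoters, and 28 CG, more than 86.0% of promoters hold. Kit (not shown) held 1 CANNTG and 2 TCCCGC, and GGTTCA, a variant retinoic acid receptor site present in 10.4% of promoters, was in none of the 5. These matches describe letters and show no binding.

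Values are the authors' RPKM, fragments scaled to transcript length and to library size. Changes are log2 differences of RPKM + 1 ± SE from limma, fitted on the 14772 genes that reached 1 RPKM in 2 or more libraries, and a gene is called at a Benjamini-Hochberg adjusted p under 0.05. All 5 genes passed that filter. Where groups are said not to overlap, an exact permutation test of 2 libraries against 2 gives a two-sided p of 0.333. Non-overlap therefore only describes the values, and its share over all genes was not counted. The estimated depth was 13.5 to 50.9 M (mega) fragments per library, taken from the spacing of low RPKM values, and the 5 genes had between 253 (the lowest Gm1564 value) and 12240 (the highest Sohlh2 value) estimated fragments per library. Kdm3a had 12.1 and 14.3 RPKM in P3 DKO and 8.97 and 7.59 RPKM in P7 DKO, against 28.4 and 26.3 RPKM in P3 Ctrl and 27.2 and 27.1 RPKM in P7 Ctrl. Kdm3b had 4.26 and 4.48 RPKM in P3 DKO and 6.49 and 6.73 RPKM in P7 DKO, against 10.2 and 13.5 RPKM in P3 Ctrl and 17.3 and 16.1 RPKM in P7 Ctrl. The 6 germ cell markers summed to between 1172 and 1556 RPKM in the 14 libraries, so germ cell transcripts were abundant in each. Replicate 2 of Jmjd1aKO and replicate 2 of Jmjd1bKO stood apart: 12 Sertoli markers summed to 841.7 RPKM and 1036 RPKM there, against 68.2 to 244.6 RPKM in the other 12 libraries. They also had more Leydig markers, 19 and 13.2 RPKM in sum against at most 2.92 RPKM elsewhere, and more stromal markers, 58.3 and 59.5 RPKM against at most 19.8 RPKM elsewhere. Without both of these Sertoli-high libraries each single knockout group is 1 library, whose spread is taken from the other groups.

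**Figure D1:**
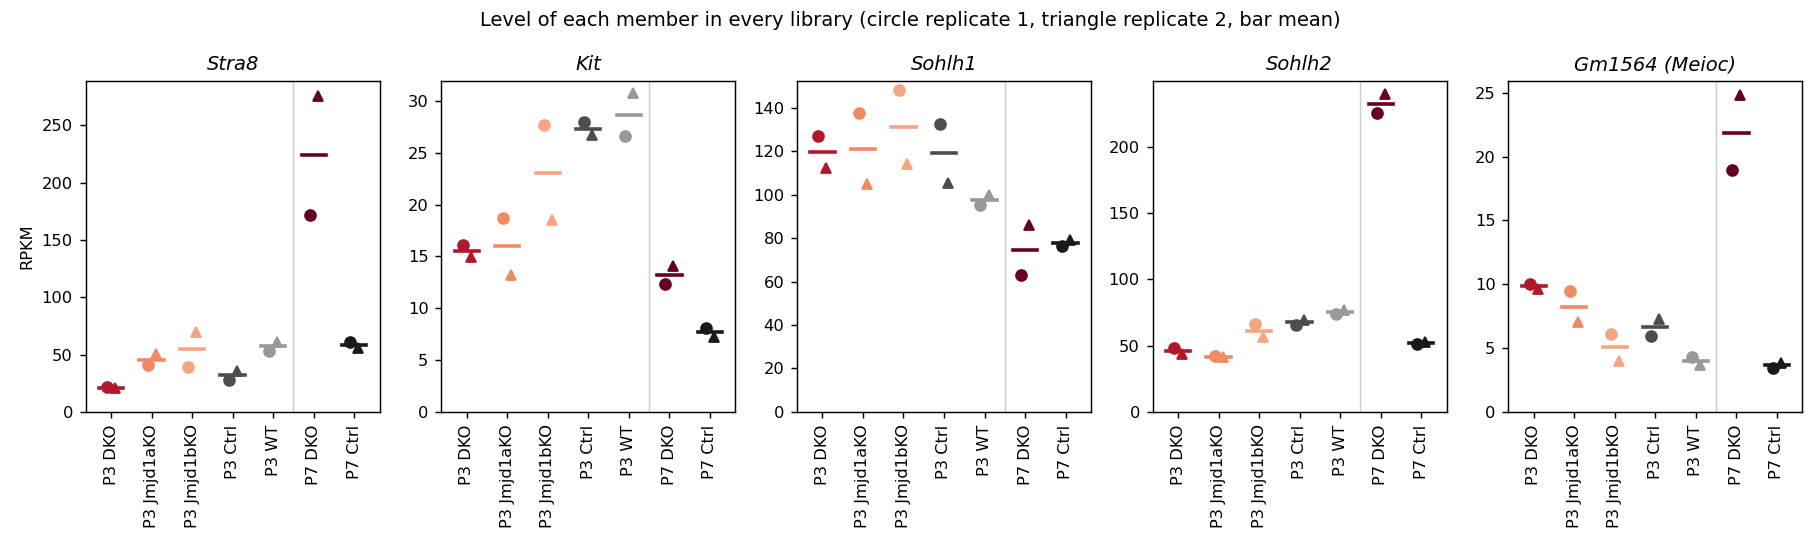
RPKM (linear axes from 0, 1 panel per gene) in each library, replicate 1 as a circle and replicate 2 as a triangle, with a horizontal bar at each group mean, P3 groups left of the grey line and P7 groups right of it. Stra8, Sohlh2 and Gm1564 are highest in P7 DKO, Kit is lowest in P7 Ctrl, and Sohlh1 stays between 63.2 and 148 RPKM.

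At P7, 4 of the 5 genes were higher in DKO than in Ctrl germ cells and Sohlh1 was not called. The fit called 33.5% of all tested genes in this comparison, 17.4% as higher and 16.1% as lower. The median change of the 5 was 1.88, beside 0.0176 over all tested genes. In bulk RNA a larger share of cells of a type and more RNA per cell cannot be told apart.

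Sohlh2 had 226 and 239.7 RPKM in P7 DKO, against 50.8 and 52.4 RPKM in P7 Ctrl. Both DKO libraries were above both Ctrl libraries, and no other group came near them: the next highest Sohlh2 libraries, of P3 WT, had 74.1 and 76.8 RPKM. The log2 change was 2.15 ± 0.09 (adjusted p 2.46e-06), the 93rd largest rise among the 14772 genes.

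Stra8, the retinoic acid target, had 172 and 276 RPKM in P7 DKO, against 61.0 and 56.0 RPKM in P7 Ctrl. The DKO libraries differed from each other far more than the Ctrl libraries did, yet the groups did not overlap. The log2 change was 1.88 ± 0.28 (adjusted p 0.00091). Gm1564 had 18.9 and 24.9 RPKM in P7 DKO, against 3.46 and 3.86 RPKM in P7 Ctrl, again without overlap. Its log2 change of 2.29 ± 0.21 (adjusted p 7.83e-05) was the largest rise of the 5 and the 78th largest of all genes. Gm1564 was also the least abundant of the 5 in P7 Ctrl on the length-scaled RPKM.

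Kit had 12.3 and 14.1 RPKM in P7 DKO, against 8.10 and 7.26 RPKM in P7 Ctrl. The groups did not overlap, but the change of 0.71 ± 0.20 (adjusted p 0.0205) was the smallest of the 4 called. Without P7 Ctrl replicate 1, P7 Ctrl replicate 2 or P7 DKO replicate 2 it was no longer called, with adjusted p of 0.0665, 0.116 and 0.111. Kit is also known from Leydig cells and mast cells. In the 12 libraries other than replicate 2 of Jmjd1aKO and of Jmjd1bKO, the 6 Leydig markers summed to at most 2.92 RPKM and the 6 mast cell markers to at most 6.61 RPKM, of which most was Hdc, at 0.927 to 6.15 RPKM in the 14 libraries. The mast cell protease Cpa3 was listed at 0 in 11 of the 14.

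Sohlh1, the partner of Sohlh2, had 63.2 and 86.3 RPKM in P7 DKO, against 76.6 and 79.4 RPKM in P7 Ctrl. The DKO libraries lay on either side of the Ctrl pair. The change of -0.08 ± 0.19 was not called (adjusted p 0.810), and its 95% interval ran from -0.50 to 0.35, so a change of the size of that of Sohlh2 lies outside it.

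**Figure D2:**
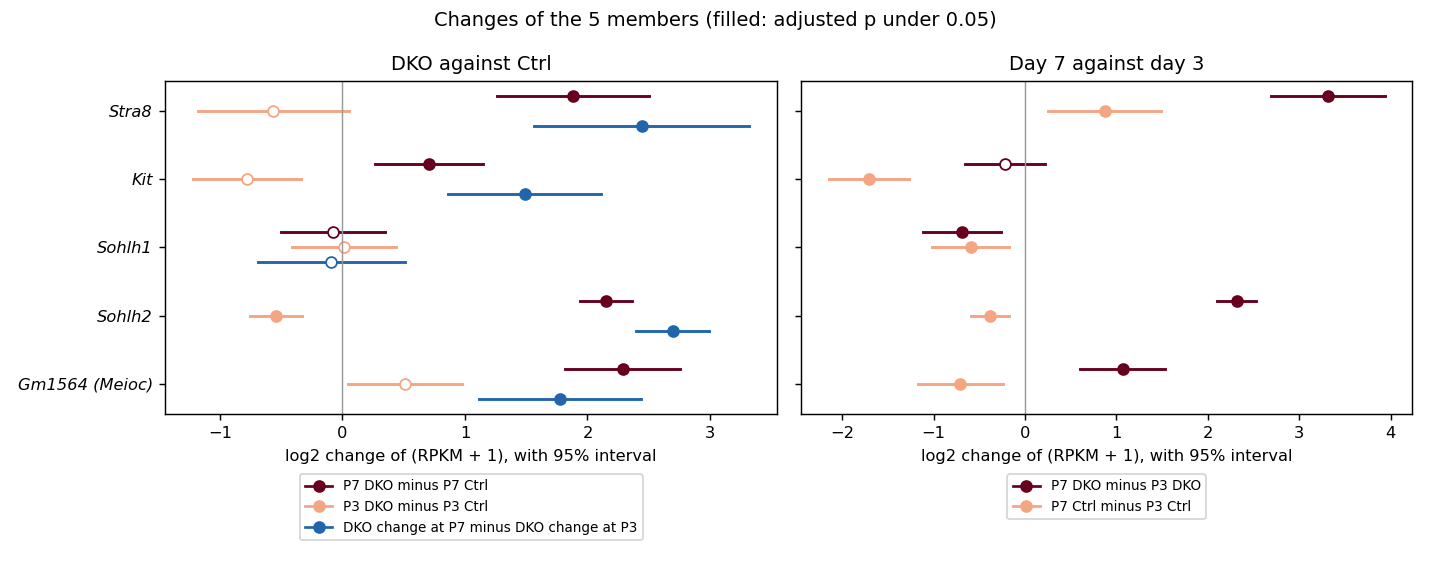
Log2 change of RPKM + 1 (points) with its 95% interval (lines) for the 5 genes, filled where the adjusted p is under 0.05, with DKO against Ctrl at each age and the difference of those changes on the left and P7 against P3 within DKO and within Ctrl on the right. In P7 DKO against P7 Ctrl, Stra8, Sohlh2 and Gm1564 lie at 1.88, 2.15 and 2.29, while in P3 DKO against P3 Ctrl Stra8, Kit and Sohlh2 lie below 0.

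Markers of other cell types were set beside these changes. The 6 endothelial markers summed to 2.32 and 1.5 RPKM in P7 DKO, against 9.32 and 9.38 RPKM in P7 Ctrl, and 2 of them, Kdr and Cdh5, were called lower. The 6 stromal markers summed to 6.75 and 6.03 RPKM in P7 DKO, against 18.9 and 18.9 RPKM in P7 Ctrl. That sum rested on Col1a1 and Pdgfra, the 2 called lower, while the other 4 averaged under 1 RPKM and their means were higher in P7 DKO, so the median change of the list was 0.114. Sertoli markers summed to 113 and 245 RPKM in P7 DKO, against 163 and 184 RPKM in P7 Ctrl, and overlapped. The 6 germ cell markers summed to 1416 and 1463 RPKM in P7 DKO, against 1258 and 1253 RPKM in P7 Ctrl. They moved both ways: Dazl was higher (0.62, adjusted p 0.00449), Ddx4 (-0.38, adjusted p 0.0151) and Tdrd1 (-0.76, adjusted p 0.00201) were lower, 3 were not called, and the median was 0.0929. The part of these differences in the rises above was not tested.

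At P3 the picture was different: Sohlh2 alone of the 5 genes was called in DKO, and it was lower. In this comparison 4.47% of all genes were called, 2.18% as higher and 2.29% as lower. Sohlh2 had 48.3 and 43.8 RPKM in P3 DKO, against 65.4 and 69.6 RPKM in P3 Ctrl, without overlap. The change was -0.54 ± 0.09 (adjusted p 0.0236). The call was lost (adjusted p 0.0506 to 0.170) under quantile normalization, in a fit of the libraries of the 2 groups alone, and without either P3 Ctrl, either P3 DKO or either P7 Ctrl library.

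Kit had 16.1 and 14.9 RPKM in P3 DKO, against 28.0 and 26.7 RPKM in P3 Ctrl. Both DKO libraries were below both Ctrl libraries, and the change of -0.78 ± 0.20 missed the threshold (adjusted p 0.0537). Kit was not called in 18 of the 24 alternatives and was called in 6. Among those 6 were the replicate number as a block (adjusted p 0.0408) and the fit without both Sertoli-high libraries, where its size was unchanged. Apart from the block, the 6 left out only single knockout libraries, which are outside this comparison.

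Stra8 had 21.3 and 20.7 RPKM in P3 DKO, the lowest pair of libraries in the study, against 27.7 and 35.9 RPKM in P3 Ctrl. The groups did not overlap, but the change of -0.56 ± 0.28 was not called (adjusted p 0.246). Gm1564 had 10.0 and 9.63 RPKM in P3 DKO, against 5.96 and 7.29 RPKM in P3 Ctrl, and its change of 0.51 ± 0.21 was not called either (adjusted p 0.168). Sohlh1 had 127 and 112 RPKM in P3 DKO, against 133 and 105.5 RPKM in P3 Ctrl. Its groups overlapped, and the change of 0.01 ± 0.19 (adjusted p 0.981) had a 95% interval from -0.41 to 0.44.

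The DKO change differed between P7 and P3 for 4 of the 5 genes, beside 22.9% of all genes called in this interaction, 12.2% as higher and 10.7% as lower. The difference, P7 change minus P3 change, was 2.69 ± 0.13 for Sohlh2 (adjusted p 1.31e-05) and 2.44 ± 0.39 for Stra8 (adjusted p 0.00308). It was 1.78 ± 0.30 for Gm1564 (adjusted p 0.0036) and 1.49 ± 0.28 for Kit (adjusted p 0.00569). For Sohlh1 it was -0.09 ± 0.27 (adjusted p 0.840, 95% interval -0.69 to 0.51). Every one of these 4 genes thus stood higher relative to its age-matched Ctrl at P7 than at P3. For Sohlh2 the sign of a called change turned, but its P3 call was lost in 8 of the 24 alternatives.

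Age was then compared within each genotype. The age comparisons share libraries with the DKO comparisons above, so they give the same values from another side. Age went with depth in these groups: 21.6 to 25.0 M estimated fragments at P7, against 38.5 to 50.9 M in P3 Ctrl and P3 DKO. Sertoli markers summed to 113 to 245 RPKM at P7, against 68.2 to 89.6 RPKM in P3 Ctrl and P3 DKO. These cannot be told apart from age here. In Ctrl all 5 genes were called between P7 and P3, 1 higher and 4 lower, beside 23.3% of all genes called (9.94% higher and 13.4% lower). Stra8 had 61.0 and 56.0 RPKM in P7 Ctrl, against 27.7 and 35.9 RPKM in P3 Ctrl (log2 change 0.87 ± 0.28, adjusted p 0.0480). Kit had 8.10 and 7.26 RPKM in P7 Ctrl, against 28.0 and 26.7 RPKM in P3 Ctrl (-1.71 ± 0.20, adjusted p 0.00165). Neither gene's groups overlapped, and they moved in opposite directions.

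Sohlh1 was lower in P7 Ctrl by a log2 change of -0.60 ± 0.19 (adjusted p 0.0480), Sohlh2 by -0.38 ± 0.09 (adjusted p 0.0200) and Gm1564 by -0.71 ± 0.21 (adjusted p 0.0374). Stra8 and Sohlh1 were just inside the threshold and were not called with median-centring, without the trend in eBayes or without the filter on low values, and Gm1564 was not called without that filter or under quantile normalization. The fall of Kit was called in every alternative, and without either P3 Ctrl or either P7 Ctrl library it was the sole call.

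In DKO, 4 of the 5 genes were called between P7 and P3, 3 higher and 1 lower, beside 58.3% of all genes (27.8% higher and 30.5% lower). Stra8 had 172 and 276 RPKM in P7 DKO, against 21.3 and 20.7 RPKM in P3 DKO. That log2 change of 3.31 ± 0.28 (adjusted p 4.27e-05) was the 15th largest rise of all genes. Sohlh2 rose by 2.31 ± 0.09 (adjusted p 2.75e-06) and Gm1564 by 1.07 ± 0.21 (adjusted p 0.00186). Sohlh1 had 63.2 and 86.3 RPKM in P7 DKO, against 127 and 112 RPKM in P3 DKO, and fell by 0.69 on the log2 scale (SE 0.19, adjusted p 0.0113). Its fall was not called without P3 DKO replicate 1 or P7 DKO replicate 1 (adjusted p 0.0703 and 0.0893). Kit, with 12.3 and 14.1 RPKM in P7 DKO and 16.1 and 14.9 RPKM in P3 DKO, changed by -0.22 ± 0.20 and was not called (adjusted p 0.357, 95% interval -0.66 to 0.22).

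The single knockouts were measured at P3 only. Against P3 Ctrl none of the 5 genes was called in Jmjd1aKO or in Jmjd1bKO by limma, and few genes were called at all: 0.0338% in Jmjd1aKO and 0.0203% in Jmjd1bKO. An unadjusted p under 0.05 was reached by 1484 genes in Jmjd1aKO and by 268 in Jmjd1bKO. Kdm3a had 9.83 and 9.84 RPKM in Jmjd1aKO and 26.1 and 25.4 RPKM in Jmjd1bKO, and Kdm3b had 9.81 and 13.9 RPKM in Jmjd1aKO and 4.72 and 7.51 RPKM in Jmjd1bKO, so each targeted gene was low in its own knockout. Both groups contain 1 of the Sertoli-high libraries, so their replicates are given one by one.

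Sohlh2 had 42.3 and 41.1 RPKM in Jmjd1aKO and 66.4 and 56.3 RPKM in Jmjd1bKO, against 65.4 and 69.6 RPKM in P3 Ctrl. Jmjd1aKO was below Ctrl in both libraries, at a level next to that of P3 DKO, while Jmjd1bKO overlapped Ctrl. The changes were -0.68 ± 0.09 in Jmjd1aKO (adjusted p 0.0761, 95% interval -0.89 to -0.47) and -0.14 ± 0.09 in Jmjd1bKO (adjusted p 0.965). Without both Sertoli-high libraries they were -0.66 (adjusted p 0.155) and -0.02. Without either Jmjd1bKO library the Jmjd1aKO change was called (adjusted p 0.0376 without replicate 1 and 0.0373 without replicate 2). The difference between the single knockouts, Jmjd1aKO minus Jmjd1bKO, was -0.54 (95% interval -0.75 to -0.33, adjusted p 0.180), in a comparison that called 0.0338% of all genes.

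Kit had 18.7 and 13.2 RPKM in Jmjd1aKO and 27.7 and 18.5 RPKM in Jmjd1bKO, against 28.0 and 26.7 RPKM in P3 Ctrl. In each single knockout the Sertoli-high library, which was also the one high in Leydig and stromal markers, had the lower Kit value. The part of those cells in the value was not tested. The change was -0.76 ± 0.20 in Jmjd1aKO (adjusted p 0.313) and -0.26 ± 0.20 in Jmjd1bKO (adjusted p 0.965). It was -0.53 and 0.02 without those libraries.

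Stra8 had 40.4 and 50.8 RPKM in Jmjd1aKO and 39.2 and 69.97 RPKM in Jmjd1bKO, against 27.7 and 35.9 RPKM in P3 Ctrl. All 4 single knockout libraries were above both Ctrl libraries, and in each group the Sertoli-high library was the higher. The changes of 0.51 ± 0.28 and 0.71 ± 0.28 were not called (adjusted p 0.569 and 0.965), and without the Sertoli-high libraries they were 0.35 and 0.30. Gm1564 had 9.46 and 7.02 RPKM in Jmjd1aKO and 6.14 and 3.98 RPKM in Jmjd1bKO, against 5.96 and 7.29 RPKM in P3 Ctrl, and overlapped in both. Sohlh1 had 137.5 and 105 RPKM in Jmjd1aKO and 148 and 114 RPKM in Jmjd1bKO, against 133 and 105.5 RPKM in P3 Ctrl, and also overlapped.

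The double knockout was set against each single knockout. Against Jmjd1aKO none of the 5 was called, beside 0.0338% of all genes (1674 at an unadjusted p under 0.05). Kit differed there by -0.02 (95% interval -0.46 to 0.42) and Sohlh2 by 0.14, whereas Stra8 differed by -1.07 with non-overlapping libraries (adjusted p 0.402). Against Jmjd1bKO 3 of the 5 were called, beside 16.5% of all genes (8.63% higher and 7.85% lower). That share rests on 2435 genes, which became 24 to 3727 without 1 library (24 without P3 DKO replicate 2 and 49 without Jmjd1bKO replicate 2) and 12 in a fit of the 2 groups alone. Stra8 was lower in DKO by -1.28 ± 0.28 (adjusted p 0.0197), Sohlh2 lower by -0.40 ± 0.09 (adjusted p 0.0230) and Gm1564 higher by 0.86 ± 0.21 (adjusted p 0.0257).

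Without the Sertoli-high libraries the DKO changes against the 1 remaining Jmjd1bKO library were -0.52 for Sohlh2, -0.80 for Kit, -0.87 for Stra8, 0.60 for Gm1564 and -0.31 for Sohlh1. None of the 3 calls held without P3 DKO replicate 1, without P3 DKO replicate 2, without Jmjd1bKO replicate 2 or in a fit of these 2 groups alone. The departure of the DKO change from the sum of the single knockout changes called none of the 5 genes, beside 0.0338% of all. It was -1.79 for Stra8 (95% interval -2.66 to -0.91, adjusted p 0.316) and 0.28 for Sohlh2 (adjusted p 0.354).

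The Ctrl and WT groups differ in Cre and in the copies of both targeted genes. Estimated depth was 38.5 and 43.4 M fragments in P3 Ctrl and 13.5 and 15.0 M in P3 WT. The 12 Sertoli markers summed to 89.6 and 68.2 RPKM in P3 Ctrl and to 135.5 and 154.6 RPKM in P3 WT. The part of depth and of Sertoli transcripts in the differences below was not tested. Kdm3a had 28.4 and 26.3 RPKM in P3 Ctrl, against 44.1 and 45.2 RPKM in P3 WT, and Kdm3b had 10.2 and 13.5 RPKM in P3 Ctrl, against 26.9 and 26.9 RPKM in P3 WT. None of the 5 genes was called between P3 Ctrl and P3 WT by limma, beside 0.704% of all genes (3923 at an unadjusted p under 0.05). That share of 104 genes became 4 to 822 genes without 1 library and 20 to 2199 in the other alternatives, the highest without both Sertoli-high libraries. Stra8 had 27.7 and 35.9 RPKM in P3 Ctrl, against 53.3 and 61.2 RPKM in P3 WT, and the change of -0.84 ± 0.28 had an adjusted p of 0.109. Gm1564 had 5.96 and 7.29 RPKM in P3 Ctrl, against 4.26 and 3.68 RPKM in P3 WT, a change of 0.61 ± 0.21 with an adjusted p of 0.113. Neither overlapped between the groups. Without both Sertoli-high libraries both were called, with adjusted p of 0.0387 for Stra8 and 0.0417 for Gm1564. The P3 WT level of Stra8 was close to that of P7 Ctrl (61.0 and 56.0 RPKM) and overlapped it.

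Over all 7 groups the 5 genes had different orders. Stra8 ran from P7 DKO at 224 ± 73.5 RPKM (mean ± SD, n = 2 in each group), clear of the others, through P7 Ctrl, P3 WT, Jmjd1bKO and Jmjd1aKO, which overlapped with their neighbours, to P3 Ctrl and then P3 DKO at 21.0 ± 0.409 RPKM. Sohlh2 ran from P7 DKO at 233 ± 9.98 RPKM to P3 WT at 75.5 ± 1.89 RPKM and P3 Ctrl at 67.5 ± 2.99 RPKM, which overlapped Jmjd1bKO. It ended with P7 Ctrl, P3 DKO and Jmjd1aKO at 41.7 ± 0.865 RPKM, each clear of the one above it.

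Gm1564 ran from P7 DKO at 21.9 ± 4.2 RPKM to P3 DKO at 9.83 ± 0.287 RPKM and Jmjd1aKO at 8.24 ± 1.73 RPKM, each below the one before it, and below these each group overlapped its neighbour, down to P7 Ctrl at 3.66 ± 0.283 RPKM. Kit was highest in P3 WT at 28.7 ± 2.93 RPKM and overlapped from group to group down to P3 DKO at 15.5 ± 0.869 RPKM. P7 DKO at 13.2 ± 1.28 RPKM lay below P3 DKO but held the lower Jmjd1aKO library within its range, and P7 Ctrl at 7.68 ± 0.593 RPKM lay below every other group. Sohlh1 was highest in Jmjd1bKO at 131 ± 24.2 RPKM and lowest in P7 DKO at 74.7 ± 16.3 RPKM. Its 4 highest groups overlapped with their neighbours, as did both P7 groups.

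The proportion of Sohlh2 to its partner differed between groups. The Sohlh2 to Sohlh1 ratio of RPKM was 3.57 and 2.78 in P7 DKO, against 0.663 and 0.660 in P7 Ctrl. At P3 it was 0.381 and 0.389 in DKO, against 0.493 and 0.660 in Ctrl. The DKO libraries were thus the highest of all at P7 and below Ctrl at P3. The low P3 ratio was not particular to DKO: it was 0.307 and 0.391 in Jmjd1aKO, 0.448 and 0.494 in Jmjd1bKO, and 0.778 and 0.769 in P3 WT. The Stra8 to Kit ratio was 14 and 19.6 in P7 DKO, against 7.53 and 7.71 in P7 Ctrl, and 1.32 and 1.39 in P3 DKO, against 0.990 and 1.34 in P3 Ctrl, where the groups overlapped. Within Ctrl that ratio was higher at P7 than at P3 in both libraries.

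**Figure D3:**
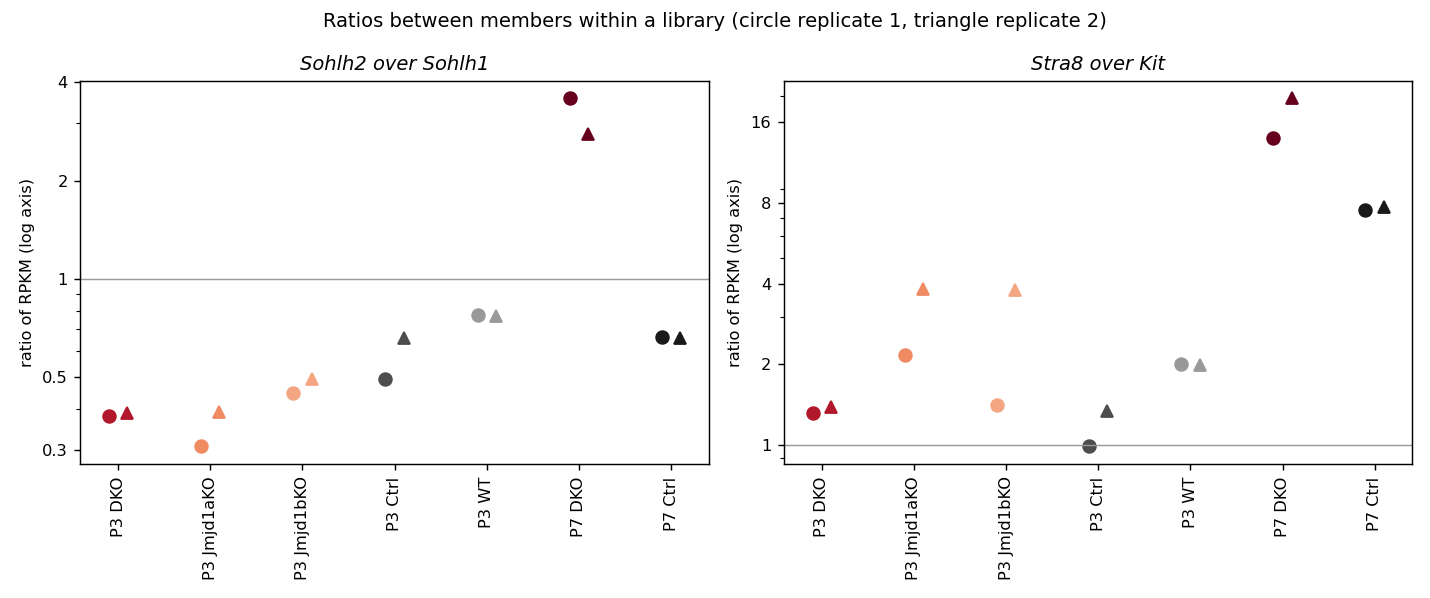
Ratio of Sohlh2 to Sohlh1 (left) and of Stra8 to Kit (right), RPKM over RPKM on a log axis, in each library by group, with replicate 1 as a circle, replicate 2 as a triangle and a grey line at a ratio of 1. P7 DKO has the highest ratios of both kinds, 3.57 and 2.78 for Sohlh2 to Sohlh1 and 14 and 19.6 for Stra8 to Kit.

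Around the 5 genes, 3 further lists were described: partners and regulators of differentiation and meiotic entry, early meiotic prophase genes, and markers of undifferentiated spermatogonia. Of the 23 partners and regulators listed in the files, 7 were higher, 5 were lower and 11 were not called in P7 DKO against P7 Ctrl, beside the 17.4% higher and 16.1% lower of all genes. The median change was 0.149, beside 0.0176 over all genes. Dmrtb1, a DM-domain factor of the mitosis to meiosis switch, had 143 and 154 RPKM in P7 DKO, against 7.86 and 9.502 RPKM in P7 Ctrl (3.96, adjusted p 2.46e-06). Rhox13, a homeobox gene of differentiating spermatogonia, averaged 97.2 RPKM in P7 DKO and 21.0 RPKM in P7 Ctrl (2.15, adjusted p 5.46e-06), and the retinoic acid binding protein gene Crabp1 193.9 RPKM in P7 DKO and 69.5 RPKM in P7 Ctrl (1.42, adjusted p 0.000507). The protease gene Prss50 averaged 6.66 RPKM in P7 DKO and 1.04 RPKM in P7 Ctrl (1.87, adjusted p 0.0106), and the call of Prss50 was lost without either P7 Ctrl library or without P7 DKO replicate 2 (adjusted p 0.0559 to 0.0798). The remaining rises were Dmrt1, Rarg and Rbm46.

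Among the falls, Sall4, a zinc-finger factor of germ cells, averaged 38.5 RPKM in P7 DKO and 91.7 RPKM in P7 Ctrl (-1.23, adjusted p 1.64e-05). Ccnd2, a cyclin of dividing spermatogonia, averaged 69.4 RPKM in P7 DKO and 136.5 RPKM in P7 Ctrl (-1.15, adjusted p 0.0294), with 103 and 35.9 RPKM in its P7 DKO libraries. The change of Ccnd2 ran from -1.90 to -0.41 without 1 library, and its call was lost without the filter on low values (adjusted p 0.0811), in a fit of the P7 groups alone (adjusted p 0.185) and without either P7 Ctrl library (adjusted p 0.112 and 0.113). Nanos3, Max and E2f6 were the other falls. Of the Meioc partners, Rbm46 had 36.4 and 44.4 RPKM in P7 DKO, against 19.8 and 20.0 RPKM in P7 Ctrl (0.98, adjusted p 0.00131), and Ythdc2 had 6.90 and 6.48 RPKM in P7 DKO, against 4.49 and 4.52 RPKM in P7 Ctrl (0.48, adjusted p 0.0529). Ythdc2 was not called in 17 of the 24 alternatives and was called in 7. Among those 7 were the replicate block (adjusted p 0.0454), median-centring (adjusted p 0.0386) and the fit without both Sertoli-high libraries. The Kit ligand gene Kitl had 1.16 and 1.47 RPKM in P7 DKO, against 1.65 and 1.91 RPKM in P7 Ctrl, and was not called (-0.26, adjusted p 0.851). It reached 7.07 and 8.06 RPKM in the Sertoli-high libraries of Jmjd1aKO and Jmjd1bKO.

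Of the 23 early meiotic prophase genes, 13 were higher and none was lower in P7 DKO against P7 Ctrl, where 17.4% of all genes were higher and 16.1% lower. The median change was 0.734, beside 0.0176 over all genes. The synaptonemal complex genes Sycp3 and Sycp1 were among them. Sycp3 had 134 and 221 RPKM in P7 DKO, against 71.3 and 69.3 RPKM in P7 Ctrl (1.28, adjusted p 0.00354), and Sycp1 averaged 126 RPKM in P7 DKO and 49.0 RPKM in P7 Ctrl (1.34, adjusted p 0.00101). Hormad1, a chromosome axis gene, averaged 83.4 RPKM in P7 DKO and 28.0 RPKM in P7 Ctrl (1.52, adjusted p 0.00619), and the meiotic cohesin gene Stag3 156 RPKM in P7 DKO and 63.6 RPKM in P7 Ctrl (1.28, adjusted p 0.000187). Spata22, needed for meiotic recombination (1.74, adjusted p 0.0158), and Prdm9, the methyltransferase that places recombination hotspots (1.30, adjusted p 0.000847), were also higher. The call of Spata22 was lost without either P7 Ctrl library or P7 DKO replicate 2 (adjusted p 0.0592 to 0.114), and that of Hormad1 without P7 DKO replicate 2 (adjusted p 0.0520). Spo11, which makes the meiotic breaks, was among the 10 not called (-0.21, adjusted p 0.684).

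Of the 20 markers of undifferentiated spermatogonia, 15 were lower and 2, Sox3 (1.78) and Utf1 (0.78), were higher, in the same comparison with 16.1% of all genes lower and 17.4% higher. The median was -2.14, and the count of 2 higher was 1 in 7 of the 24 alternatives. Plvap averaged 0.822 RPKM in P7 DKO and 79.4 RPKM in P7 Ctrl (-5.46, adjusted p 1.14e-06), Foxc2 2.80 RPKM in P7 DKO and 75.8 RPKM in P7 Ctrl (-4.37, adjusted p 1.64e-05), and Bcl6b 9.97 RPKM in P7 DKO and 88.6 RPKM in P7 Ctrl (-3.09, adjusted p 0.000137). Foxc2 is a transcription factor of quiescent stem cells and Bcl6b a target of Gdnf signalling. Plvap is also an endothelial gene, and the summed endothelial markers above were lower in P7 DKO too. Within Ctrl, Plvap averaged 15.9 RPKM in P3 Ctrl and 79.4 RPKM in P7 Ctrl. The endothelial markers summed to 28.6 and 17.1 RPKM in P3 Ctrl and to 9.32 and 9.38 RPKM in P7 Ctrl, but they moved both ways. Pecam1 averaged 12.7 RPKM in P3 Ctrl and 1.57 RPKM in P7 Ctrl, while Kdr averaged 1.83 RPKM in P3 Ctrl and 3.71 RPKM in P7 Ctrl. Of the 5 tested, 1 was called higher and 3 lower in P7 Ctrl, beside 9.94% of all genes higher and 13.4% lower. The part of endothelial cells in the Plvap values was not tested. Lhx1 (-3.62) and Eomes (-3.13), transcription factors of the stem cell pool, fell likewise. So did T, which averaged 0.516 RPKM in P7 DKO and 18.0 RPKM in P7 Ctrl (-3.66).

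**Figure D4:**
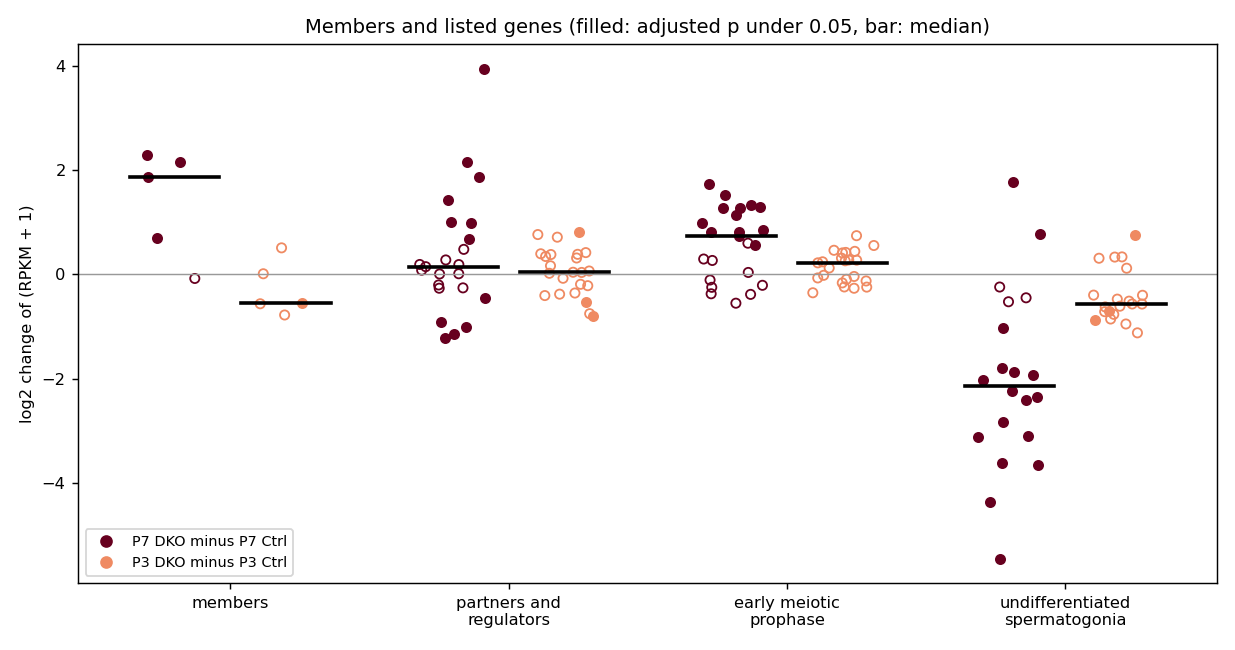
Log2 change of RPKM + 1 of the 5 genes (members) and of each gene of the 3 lists, 1 point per gene, in P7 DKO against P7 Ctrl (dark) and P3 DKO against P3 Ctrl (light), filled where the adjusted p is under 0.05, with a bar at each median. At P7 the early meiotic prophase genes lie mostly above 0 (13 called higher) and the undifferentiated markers mostly below it (15 called lower), and at P3 few genes are called.

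At P3 the same lists held few calls in DKO against Ctrl, where 2.18% of all genes were higher and 2.29% lower. Of the partners and regulators 1 was higher, Dmrtb1 with 8.25 and 8.46 RPKM in P3 DKO, against 4.28 and 4.35 RPKM in P3 Ctrl (0.82, adjusted p 0.0348), and 2 were lower, Ccna2 (-0.81, adjusted p 0.0399) and Dnmt3b (-0.54, adjusted p 0.0256). Ccna2 encodes a cyclin of S phase and Dnmt3b a de novo DNA methyltransferase. None of the 23 early meiotic genes was called, with a median change of 0.223. Among the undifferentiated markers Sox3 was higher (0.76, adjusted p 0.0214), and Plvap (-0.87, adjusted p 0.0359) and Lin28a (-0.71, adjusted p 0.0236) were lower. All 6 calls were lost in a fit of the P3 DKO and P3 Ctrl libraries alone (adjusted p 0.0934 to 0.111), and also without either P3 Ctrl library, P3 DKO replicate 2 or either P7 Ctrl library.

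The interaction called 6 of the 23 partners and regulators as higher and 3 as lower, 8 of the 23 early meiotic genes as higher and 1, Rad21l, as lower, and 1 of the 20 undifferentiated markers as higher and 11 as lower, beside 12.2% of all genes higher and 10.7% lower. For Dmrtb1 the P7 change exceeded the P3 change by 3.14 (adjusted p 0.000181), and for Plvap it was lower by -4.60 (adjusted p 4.14e-05). In Ctrl the age comparison went otherwise: none of the early meiotic genes was higher and 5 were lower in P7 Ctrl than in P3 Ctrl, and 5 undifferentiated markers were higher and 2 lower, beside 9.94% of all genes higher and 13.4% lower. In DKO 12 early meiotic genes were higher and 5 lower in P7 than in P3, and 1 undifferentiated marker was higher and 15 lower, beside 27.8% of all genes higher and 30.5% lower.

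The genes whose levels ran most like each of the 5 were found by the root mean square (RMS) difference of centred log2(RPKM + 1) over the 14 libraries, a smaller value being more alike. For Sohlh2, whose own spread on that scale was 0.766, the nearest were Atp5f1 at 0.209, Asb9 at 0.243, Pfn2 at 0.278 and Pir at 0.281. Atp5f1, a subunit gene of mitochondrial ATP synthase, had 460.5 and 555 RPKM in P7 DKO, against 148 and 143 RPKM in P7 Ctrl. For Gm1564 (own spread 0.749) they were Rhox13 at 0.235, Pet2 at 0.239, Klk1b3 at 0.253 and Morc4 at 0.267. Rhox13 had 87.6 and 107 RPKM in P7 DKO, against 21.2 and 20.8 RPKM in P7 Ctrl.

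For Kit (own spread 0.599) the nearest was Sfrp5 at 0.22, a secreted antagonist of Wnt signalling. It had 1.55 and 1.57 RPKM in P7 DKO, against 0.470 and 0.363 RPKM in P7 Ctrl, and 1.35 and 2.46 RPKM in P3 DKO, against 5.22 and 3.56 RPKM in P3 Ctrl, higher at P7 and lower at P3 as Kit was. Pik3r1 at 0.281, a regulatory subunit gene of phosphoinositide 3-kinase, Nkain1 at 0.299 and Sfmbt2 at 0.3 followed. Stra8 (own spread 0.98) had no gene nearer than 0.378 (the histone gene Hist1h4i), with Aga, Minos1 and Rpl41 behind it. Sohlh1, with the smallest spread of 0.336, was nearest to Zdhhc18 at 0.121, Vat1 at 0.127, Akt2 at 0.13 and Pfn4 at 0.138.

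Among the 5 themselves the smallest RMS difference was that of Kit and Sohlh1 at 0.473. Stra8 and Sohlh2 followed at 0.546 and Sohlh2 and Gm1564 at 0.639, and the largest was Stra8 and Kit at 1.29. The measure also depends on the spread of each gene. The value for Kit and Sohlh1 exceeded the own spread of Sohlh1 (0.336), so it does not show that the 2 ran alike. That for Stra8 and Sohlh2 lay below both own spreads (0.98 and 0.766). These measures are descriptions over 14 libraries that share their groups. Over the 7 group means Hist1h4i, Sfrp5 and Atp5f1 stayed the nearest to Stra8, Kit and Sohlh2, while the nearest became Pet2 for Gm1564 and St3gal2 for Sohlh1.

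**Figure D5:**
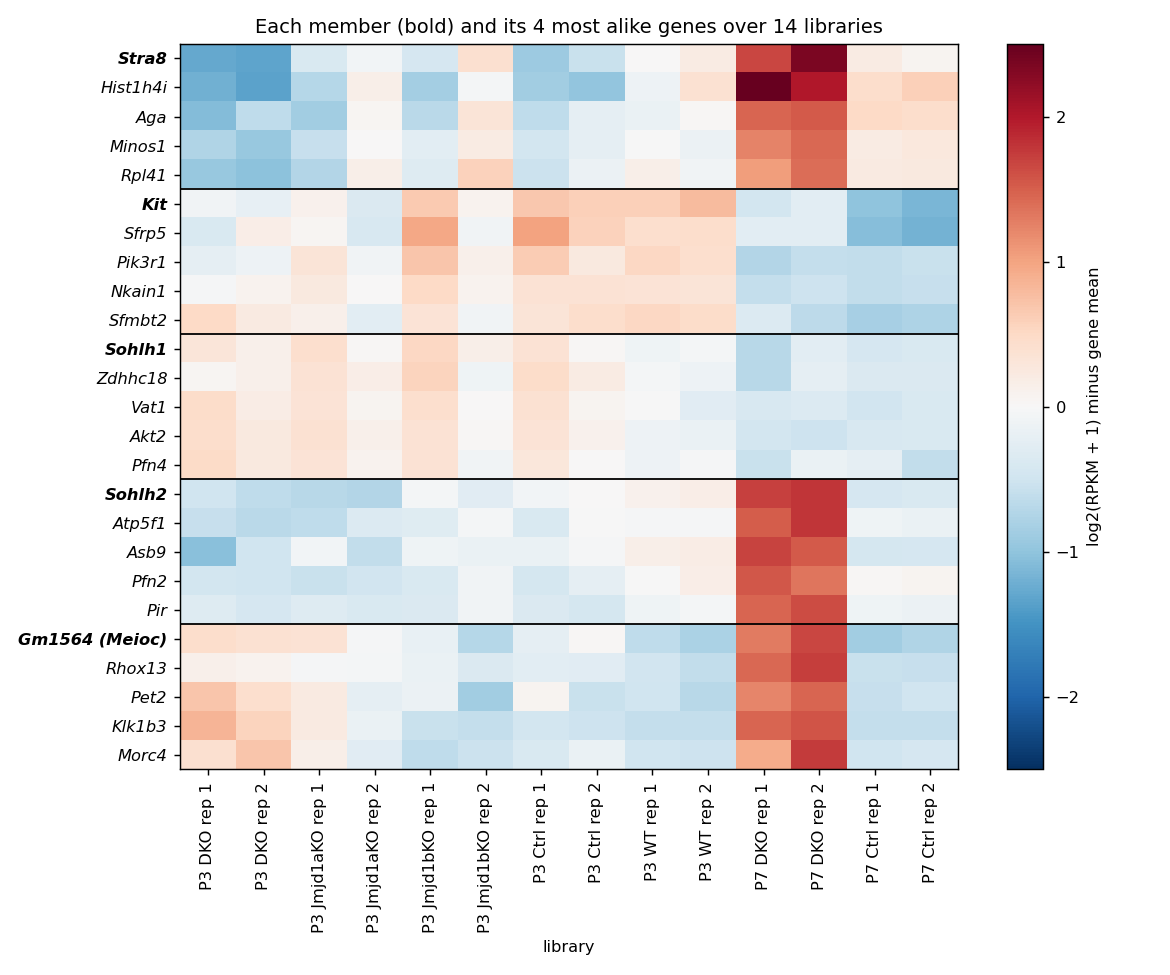
Heat map of log2(RPKM + 1) minus each gene's own mean over the 14 libraries (columns), red above and blue below that mean, for each of the 5 genes (bold rows) and the 4 genes with the smallest RMS difference from it. Sohlh2 and Gm1564 and their nearest genes are red in P7 DKO, and Kit and Sfrp5 (0.22) are bluest in P7 Ctrl.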

How the data were processed

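The authors deposited RPKM values for 24340 gene symbols in each of 14 libraries. Per the labels' protocols, extraction used an AllPrep DNA/RNA Micro kit, and library preparation used TruSeq Stranded mRNA LT. TopHat2 2.1.1, Cufflinks 2.1.1 and mm10 are named in the submitters' processing notes. The role of each and the annotation are not given in the sources used here. No counts were used, and depth was inferred from the spacing of low RPKM values, which gives counting error only approximately.

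Values were taken as log2(RPKM + 1) with no further scaling, so fold changes of low genes are understated. The filter kept the 14772 genes that reached 1 RPKM in 2 or more libraries. limma 3.58.1 (trended eBayes, R 4.3.3) was fitted with 1 coefficient per group over all 14 libraries (7 residual degrees of freedom). p-values are two-sided, with Benjamini-Hochberg adjustment per comparison (12 in all) and a threshold of 0.05. The model was tested on simulated data first. That simulation drew noise independently for each gene and library. It could therefore not test differences shared by many genes, such as those of the Sertoli-high libraries. An exact permutation test of 2 libraries against 2 cannot give a two-sided p below 0.333. Of the 12, the comparison of both single knockouts and the departure from their sum were added after values had been seen. The members and lists were chosen with earlier results of these data known. The lists held 26, 25 and 20 genes, of which 23, 23 and 20 matched. Gm4969, Bhmg1, Meiosin, Iho1 and Rnf212 did not match.

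Besides the 5 genes, the rule for named genes took from each list up to 6 called genes at P7 and 4 at P3 by size of change, with Kitl, Ythdc2 and Rbm46 in any case, and the 4 nearest genes by RMS difference, without predicted genes and small RNAs. Genes named outside it (Dmrt1, Rarg, Nanos3, Max, E2f6, Utf1, Spo11, Rad21l, the marker genes Dazl, Tdrd1, Kdr, Cdh5, Pecam1, Col1a1, Pdgfra and Hdc, and Sox3 at P7) were chosen after their values were seen. Promoters came from RefSeq, and 5 of 5 members matched. Alternatives were the pseudocount, the filter, 2 other scalings, eBayes without trend, fewer libraries and a replicate block.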

Additional observations from a re-analysis of the deposited data

Results flagged for a closer look

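The DKO change at P7 differed from that at P3 for 4 of the 5 genes. This was a test of the difference itself (limma, 2 libraries per group), which called 22.9% of all genes, 12.2% as higher and 10.7% as lower. The P7 change exceeded the P3 change by 2.69 (log2, SE 0.13, adjusted p 1.31e-05) for Sohlh2 and by 2.44 (SE 0.39, adjusted p 0.00308) for Stra8. It did so by 1.78 (SE 0.30, adjusted p 0.0036) for Gm1564 and by 1.49 (SE 0.28, adjusted p 0.00569) for Kit. All 4 were called in every one of the 24 alternatives run. Dixon's test for an outlying library was not run, since it needs groups of more than 2.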

How the results depend on the processing

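The 4 calls of the interaction held in all 24 alternatives, and leaving out 1 library (the lone one left is assumed to vary like the other groups) moved the count to 3 to 4 in P7 DKO against P7 Ctrl and in P7 DKO against P3 DKO. In P3 DKO against P3 Ctrl the count of 1 became 0 under quantile normalization and in a fit of the 2 groups alone, 2 without both Sertoli-high libraries, and 0 to 2 without 1 library. With the replicate number as a block it was 2. The labels state no pairing. Deviations of same-numbered libraries correlated at 0.085 to 0.581 among the 4 P3 Vasa-Cre groups and at -0.13 to 0.164 in the other pairs of groups, so the block is given only as an alternative. In P3 DKO against Jmjd1bKO the count of 3 became 0 in a fit of the 2 groups alone and 0 to 3 without 1 library. In P7 Ctrl against P3 Ctrl the count of 5 became 2 without the low-value filter, 3 with median-centring, 3 without the eBayes trend and 1 to 5 without 1 library. The count in Jmjd1aKO was 0 to 1 without 1 library, and in P3 Ctrl against P3 WT it was 2 without both Sertoli-high libraries. The cause was not tested.

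Signs turned only for changes that were not called. With median-centring Sohlh1 was -0.010 in Jmjd1aKO, -0.032 in P3 DKO and 0.0076 in the interaction, and Ythdc2 -0.022 in P3 DKO. Under quantile normalization Ythdc2 was -0.12 in P3 DKO, Kit 0.0073 and Sohlh1 0.13 in DKO against Jmjd1aKO, and Sohlh1 0.17 in DKO against Jmjd1bKO, 0.042 in Jmjd1aKO against Jmjd1bKO and 0.057 in the departure from the sum. Without both Sertoli-high libraries Kit was 0.017 in Jmjd1bKO and -0.27 in the departure from the sum, and Stra8 was 0.044 in Jmjd1aKO against Jmjd1bKO.

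Without 1 library, Sohlh1 ran from -0.17 to 0.21 in Jmjd1aKO, -0.054 to 0.32 in Jmjd1bKO, -0.15 to 0.18 in P3 DKO, -0.20 to 0.18 in DKO against Jmjd1aKO, -0.31 to 0.067 in DKO against Jmjd1bKO, -0.30 to 0.14 in P7 DKO, -0.31 to 0.13 in the interaction, -0.31 to 0.081 in Jmjd1aKO against Jmjd1bKO and -0.33 to 0.051 in the departure from the sum. Kit ran from -0.16 to 0.038 in P3 Ctrl against P3 WT, -0.54 to 0.017 in Jmjd1bKO, -0.25 to 0.21 in DKO against Jmjd1aKO and -0.036 to 0.52 in the departure from the sum. Stra8 ran from -0.62 to 0.20 in Jmjd1aKO against Jmjd1bKO, and in P3 DKO Ythdc2 from -0.056 to 0.10 and Rbm46 from -0.30 to 0.15.

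Over all genes, the calls in P3 DKO against P3 Ctrl ran from 10 to 921 without 1 library, against 661, and were 1140 with the block, 1584 without the filter, 1931 without both Sertoli-high libraries and 17 in a fit of the 2 groups alone.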
